A study of Mus musculus with 23 samples.

Results

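The genes described here encode the enzymes of sterol synthesis, the SREBP proteins and partners that control them, the enzymes of fatty acid synthesis and remodelling, and genes of sterol export and LXR signalling. They were taken by gene symbol from a list of 38 names, 38 of the 35645 genes in the RNA count table. Of these, 6 act in the mevalonate steps, 11 in the squalene and sterol steps, 5 belong to the SREBP regulators, 10 to fatty acid synthesis and remodelling, and 6 to sterol transport and LXR. All 38 had enough counts to be tested.

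The RNA came from mouse liver lymphocytes of 6 mice, with 1 mouse and 1 sorted population behind each library. NK cells were sorted as S1pr5eGFP+ cells (4 libraries). ILC1s, the tissue-resident relatives of NK cells, were divided by current granzyme C protein (GzmC) and by a fate-map reporter of past Gzmc expression (GzmcFM). Double-positive ILC1s (DP, GzmC+GzmcFM+) and fate-mapped single-positive ILC1s (FMSP, GzmC-GzmcFM+) gave 4 libraries each, and double-negative ILC1s (DN, GzmC-GzmcFM-) gave 3. Libraries are named by population and mouse number, so DN2 is the DN library of mouse 2. Mice 4 and 6 gave all 4 populations, mouse 5 gave NK, FMSP and DP, mouse 3 gave FMSP and DP, mouse 1 gave NK only and mouse 2 gave DN only. Chromatin accessibility (ATAC-seq, 50000 sorted cells per library) was measured in liver NK cells, liver ILC1s, spleen NK cells and salivary gland ILC1s with 2 libraries each. The sample labels name the reporter gates for these cells, whereas the series' design text names surface markers (CD49a, CD49b), so the ATAC gate is uncertain. Strain, age and treatment are not given in the sources used here.

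Cells make cholesterol from acetyl-CoA through mevalonate, isoprenoid diphosphates, squalene and lanosterol. When membrane sterol is low, SCAP escorts SREBP proteins from the endoplasmic reticulum to the Golgi, where they are cleaved into transcription factors that activate genes of sterol and fatty acid synthesis. INSIG proteins hold SCAP back when sterol is plentiful, and oxysterols then activate the LXR receptors, which switch on sterol exporters and the ubiquitin ligase MYLIP.

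Library totals lay between 51641248 and 73309063 estimated counts. The labels were checked against marker genes: Cxcr6, a chemokine receptor of ILC1s, stood between 576 and 1642 CPM (counts scaled to a common library size) in the ILC1 libraries and between 1.4 and 6.6 CPM in NK, and Eomes, an NK transcription factor, stood between 396 and 480 CPM in NK and between 0.3 and 115 CPM in ILC1s. Gzmc lay between 320 and 496 CPM in DP, 21.8 and 42.0 CPM in FMSP, 10.2 and 13.6 CPM in DN, and 1.0 and 3.9 CPM in NK. The summed level of 18 hepatocyte markers was 2431 CPM in FMSP6, 1103 CPM in FMSP5 and 1008 CPM in DN2, and 76.2 to 400 CPM in the other 12 libraries. None of the 18 markers was at 0 counts in those 3 libraries, and 0 to 3 were in each of the others. DN2 also had the highest summed level of 12 cell cycle genes, 1870 CPM against 298 to 776 CPM elsewhere. The summed level of 8 T cell markers was 64.8 to 179 CPM in NK and 481 to 1818 CPM in ILC1s, highest in DN2. In DP much of that sum was Cd3g, at 316 to 1153 CPM beside sums of 481 to 1249 CPM. Trac was at 13.3 and 13.4 CPM in DP4 and DP5, within the 11.4 to 28.1 CPM of NK. It was at 45.5 and 33.4 CPM in DP3 and DP6. The summed level of 10 Kupffer cell markers was 315 CPM in DN2 and 18.3 to 239 CPM elsewhere. The summed level of 6 stellate cell markers was 88.7 CPM in DN2 and 0.157 to 13.6 CPM elsewhere. Ncr1 and Klrb1c, receptors shared by NK cells and ILC1s, were lowest in DN2, at 730 and 934 CPM against at least 1239 and 1246 CPM in the other libraries. Results are therefore given with all 15 libraries and without DN2, FMSP5 and FMSP6. The part of hepatocyte, T cell, Kupffer cell, stellate cell or cell cycle RNA in the results was not tested. In sorted bulk RNA, more cells of a type and more RNA per cell cannot be told apart.

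The sterol synthesis enzymes stood far higher in DN2 than in any other library. The summed level of the 17 enzymes of the mevalonate, squalene and sterol steps was 2045 CPM in DN2 and between 398 and 618 CPM in the other 14 libraries. DN2 held the highest of the 15 values in 14 of the 17 enzymes and in 23 of the 38 members (60.5%), compared with 18.7% of all 17124 tested genes. The median enzyme was 5.00-fold above the median of the other 14 libraries, ranging from 0.991-fold to 26.7-fold. FMSP3 stood at a median of 1.43-fold, FMSP5 and FMSP6 at 1.34-fold each, and DP3 at 1.27-fold. The remaining DN libraries, DN4 and DN6, were at 0.814-fold and 0.948-fold. Abca1, Mylip and Elovl5, 3 of the 38 members, had their lowest value of all libraries in DN2, as did 13% of all tested genes. The high level was thus a property of 1 library of 1 mouse, and no replicate of it exists, since mouse 2 gave no other population.

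**Figure D1:**
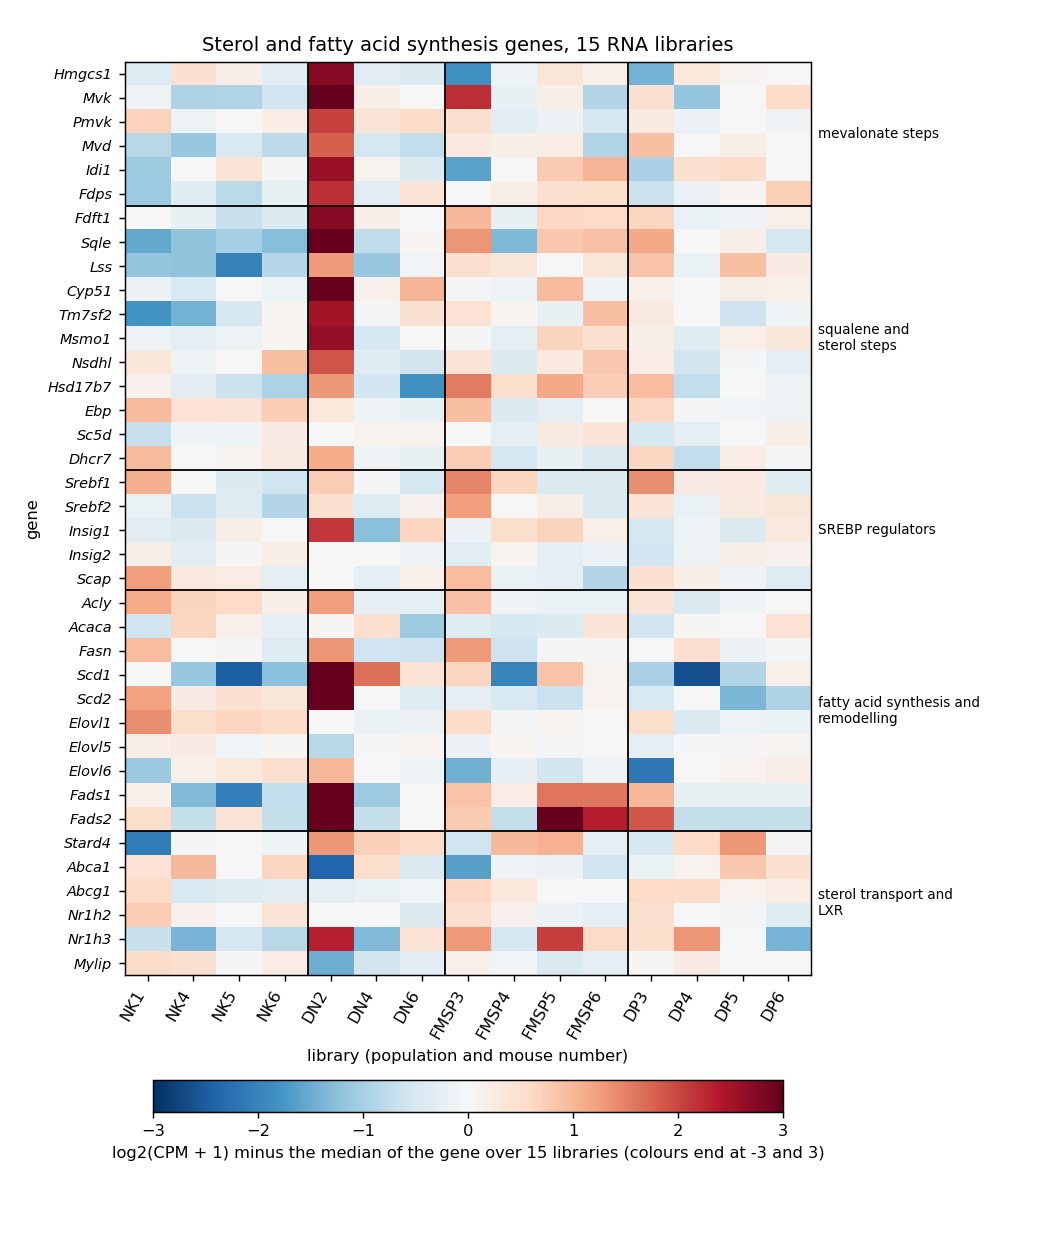
Level of each of the 38 members in each of the 15 RNA libraries, with genes in rows ordered by role and libraries in columns ordered by population, coloured by the log2 level relative to that gene's median. The DN2 column is the highest in 23 of the 38 rows, chiefly among the mevalonate and sterol enzymes.

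**Figure D2:**
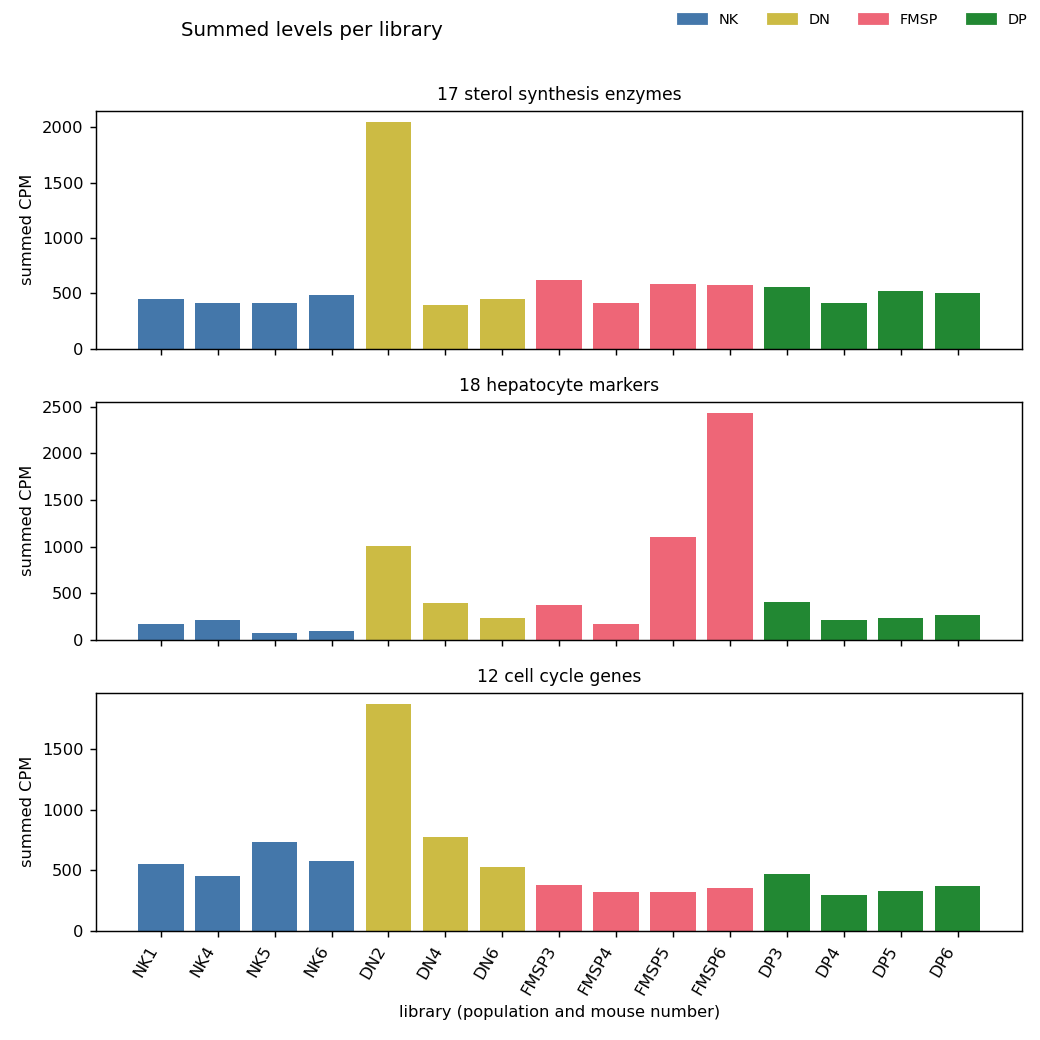
Summed CPM of the 17 sterol synthesis enzymes, 18 hepatocyte markers and 12 cell cycle genes, with 1 bar per library coloured by population. DN2 reached 2045 CPM for the sterol enzymes while the other 14 libraries lay between 398 and 618 CPM, and FMSP6 had the highest hepatocyte sum at 2431 CPM.

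Populations were compared by edgeR's quasi-likelihood test with Benjamini-Hochberg adjustment over all tested genes, at an adjusted p of 0.05. Fold changes are on the log2 scale with their standard error. The comparisons with NK cells share the same 4 NK libraries, so their values stand side by side and do not repeat each other independently. For the unweighted mean of the 3 ILC1 populations against NK, 1 member rose and 1 fell (Lss and Elovl1). Over all genes 5.92% were called, 2.9% higher and 3.02% lower. Unadjusted, 14 of 38 members had a p under 0.05. No share of all genes was computed at an unadjusted p, so such counts have no background here or below. The shares given are of adjusted calls. Against NK alone, DP gave 1 member higher and 0 lower (4.08% of all genes called, 2.51% higher and 1.58% lower), and DN gave 2 higher and 1 lower (2.99% of all genes, 1.81% higher and 1.18% lower). FMSP gave 0 members by edgeR (4.07% of all genes called, 2.48% higher and 1.59% lower), with 6 of 38 at an unadjusted p under 0.05 and 1 called by DESeq2 (8.49% of all genes). The share of members called was below that of all genes for the ILC1 mean, DP and FMSP, and above it for DN. Leaving out single libraries moved the DN count from 3 to 0 (without DN2, NK1, NK4 or NK6), to 1 (without NK5), to 4 (without DN6) or to 8 (without DN4). The shares of all genes called in these omissions are not given here. Without DN2, FMSP5 and FMSP6 the ILC1 mean gave 1 member higher (5.69% of all genes called, 2.91% higher and 2.77% lower) and DP gave 2 higher (4.58%, of which 2.68% higher and 1.9% lower). FMSP gave 1 higher (3.33%, of which 2.24% higher and 1.08% lower), and DN gave 0 by edgeR (1.97%, of which 1.38% higher and 0.588% lower). In that DN comparison 5 of 38 had an unadjusted p under 0.05; DESeq2, run on all 15 libraries only, called 10 (8.07% of all genes).

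Among the mevalonate steps, which lead from acetyl-CoA to farnesyl diphosphate, 0 of 6 genes passed the test against NK in edgeR's fit of all 15 libraries without a mouse term. The median log2 fold change of the 6 was 1.52 in DN against NK, with 6 of 6 positive, beside 0.17 for all genes; without the 3 libraries it was 0.21, with 4 of 6 positive, beside 0.04. Hmgcs1, which makes HMG-CoA, was at 248 CPM in DN2 but at 29.2 and 27.1 CPM in DN4 and DN6, within the 27.8 to 51.0 CPM of the NK libraries. Mvk, the kinase that phosphorylates mevalonate, was at 59.3, 7.38 and 6.34 CPM in DN2, DN4 and DN6 and at 5.76, 2.87, 2.92 and 3.89 CPM in NK. The DN values of Mvk all lay above NK, yet the difference did not pass (log2 fold change 2.66 ± 0.89, adjusted p = 0.145; 0.83 ± 0.72, adjusted p = 0.648 without the 3 libraries). Pmvk, the next kinase, stood at 40.1 CPM in DN2 and between 5.98 and 15.03 CPM elsewhere, and Idi1, which isomerises isopentenyl diphosphate, at 138 CPM in DN2 and between 6.58 and 45.6 CPM elsewhere. Fdps, which joins isoprene units into farnesyl diphosphate, was the mevalonate gene with the lowest adjusted p in DN. Its levels were 162, 27.1 and 45.6 CPM in DN against 15.7, 26.6, 19.4 and 29.3 CPM in NK (1.78 ± 0.49, adjusted p = 0.0697; 0.67 ± 0.39, adjusted p = 0.481 without the 3 libraries).

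Mvd, the decarboxylase that closes the mevalonate segment by making isopentenyl diphosphate, was the mevalonate gene that edgeR called without the 3 libraries and without a mouse term, in DP. Its DP levels were 41.6, 22.0, 24.6 and 21.8 CPM in mice 3 to 6, and its NK levels were 11.7, 9.33, 15.5 and 12.2 CPM in mice 1, 4, 5 and 6. Every DP library lay above every NK library. The log2 fold change was 1.17 ± 0.51 with an adjusted p of 0.300 over all libraries, and 1.17 ± 0.29 with an adjusted p of 0.038 without DN2, FMSP5 and FMSP6, none of which is a DP or NK library. The estimate stayed the same and the spread shared with the other groups became smaller. Of 16 alternative fits of DP against NK, the fit without the 3 libraries was the only 1 that called Mvd. Leaving out any 1 of the 8 DP and NK libraries gave edgeR adjusted p between 0.366 and 0.499.

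Lss, which folds oxidosqualene into lanosterol, the first sterol ring, was the member that rose most regularly. Its NK levels were 18.1, 17.5, 9.42 and 22.6 CPM. DP stood at 76.4, 36.4, 79.4 and 49.5 CPM, FMSP at 58.3, 54.1, 41.8 and 54.3 CPM, and DN at 102, 18.5 and 39.5 CPM. All 8 DP and FMSP libraries lay above all 4 NK libraries, while DN4 lay within the NK range. Lss rose in the ILC1 mean (1.71 ± 0.39, adjusted p = 0.0156; 1.45 ± 0.33, adjusted p = 0.0206 without the 3 libraries) and in DP (1.84 ± 0.44, adjusted p = 0.0261; 1.84 ± 0.36, adjusted p = 0.0104 without them). For FMSP it did not pass with all libraries (1.62 ± 0.44, adjusted p = 0.0523) and passed without DN2, FMSP5 and FMSP6 (1.73 ± 0.41, adjusted p = 0.0402). For DN the log2 fold change of Lss was 1.66 ± 0.46 (adjusted p = 0.0715) and 0.78 ± 0.41 (adjusted p = 0.452) without the 3 libraries. The ILC1 call of Lss was lost without NK4 (adjusted p = 0.0530) or NK5 (adjusted p = 0.0676). The DP call was lost without NK1 (0.0626), NK4 (0.0760), NK5 (0.0932), DP3 (0.0701) or DP5 (0.0826), with fold changes between 1.64 and 2.02 over all single-library omissions.

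Sqle, the oxygenase that makes oxidosqualene and is a rate-limiting step of the pathway, had its highest value in DN2. NK levels were 2.38, 3.24, 3.81 and 3.05 CPM, and DN levels 195, 4.77 and 9.19 CPM. DP was at 20.6, 8.77, 10.0 and 5.82 CPM and FMSP at 23.5, 2.85, 16.2 and 16.9 CPM. All DN and DP libraries were above all NK libraries, and FMSP4 was within the NK range. Sqle rose in DN (4.48 ± 1.04, adjusted p = 0.0284), but without DN2, FMSP5 and FMSP6 the log2 fold change was 1.16 ± 0.73 (adjusted p = 0.514). DP gave 1.86 ± 0.91 (adjusted p = 0.369) for Sqle, and the ILC1 mean gave 2.86 ± 0.87 (adjusted p = 0.0727), and 1.70 ± 0.59 (adjusted p = 0.138) without the 3 libraries.

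Cyp51, the demethylase of lanosterol, followed the same form. It was at 16.5, 13.4, 18.8 and 16.9 CPM in NK and at 240, 20.5 and 39.2 CPM in DN. FMSP stood at 18.1, 16.9, 37.2 and 17.4 CPM and DP at 21.1, 18.7, 21.4 and 20.9 CPM, both overlapping NK. Cyp51 rose in DN (2.61 ± 0.60, adjusted p = 0.0282), and the log2 fold change was 0.87 ± 0.30 (adjusted p = 0.246) without the 3 libraries. DN4 and DN6 remained above all NK libraries. In DN against NK, the calls of both Sqle and Cyp51 were also lost when any 1 of NK1, NK4, NK5 or NK6 was left out, with adjusted p between 0.0801 and 0.0885 for Sqle and between 0.0719 and 0.0933 for Cyp51.

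The other squalene and sterol enzymes did not pass against NK in edgeR's fit of all 15 libraries without a mouse term. Over the 11 genes of these steps, the median log2 fold change in DN was 1.54 with 10 of 11 positive, and 0.25 with 6 of 11 positive without the 3 libraries. Fdft1, which joins farnesyl units to squalene, stood at 170 CPM in DN2 and between 15.2 and 50.3 CPM in all other libraries. Msmo1, a methyl sterol oxidase, was at 269 CPM in DN2 and between 29.4 and 67.9 CPM elsewhere. Tm7sf2, a sterol reductase, reached 42.6 CPM in DN2 and at most 13.6 CPM elsewhere. Nsdhl, a sterol dehydrogenase, was at 63.6 CPM in DN2 and at most 32.1 CPM elsewhere. Hsd17b7, a ketosteroid reductase of the same steps, was highest in FMSP3 at 26.0 CPM, followed by DN2 at 21.9 CPM. Ebp, the isomerase of the sterol ring, was an exception: DN2 was at 88.5 CPM, below all 4 NK libraries (139, 96.6, 96.0 and 121 CPM). Sc5d, a desaturase of the late steps, lay between 36.8 and 79.1 CPM in all libraries, with DN2 at 60.1 CPM.

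The bases before the transcription start are shown for sterol enzymes called by edgeR without a mouse term, either over all libraries or without the 3. Enzymes called only in other fits, such as Ebp under a mouse term, are not shown. Hmgcs1 was added after the search because it alone held the letters searched for as the sterol regulatory element. Other forms of that element were not searched. The bases come from RefSeq's promoter table, build GRCm38.p6, which is the assembly of mm10, and end at the base before the start. Lss is on the plus strand at chr10:76531355-76531604, Cyp51 on the minus strand at chr5:4104698-4104947, Mvd on the minus strand at chr8:122443423-122443672, and Hmgcs1 on the plus strand at chr13:119690101-119690350. Capitals mark matches on either strand to the sterol regulatory element (TCACNCCAC), the NF-Y box (CCAAT, or ATTGG on the other strand) and the GC box (GGGCGG, or CCGCCC); the E-box (CACGTG) was also searched. Sqle was not in the promoter table.
Lss: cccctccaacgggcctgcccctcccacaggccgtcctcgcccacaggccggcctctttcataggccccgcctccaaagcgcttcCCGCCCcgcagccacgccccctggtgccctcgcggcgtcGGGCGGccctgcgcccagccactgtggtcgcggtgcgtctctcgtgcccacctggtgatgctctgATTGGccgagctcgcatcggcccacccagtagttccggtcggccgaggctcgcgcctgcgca
Cyp51: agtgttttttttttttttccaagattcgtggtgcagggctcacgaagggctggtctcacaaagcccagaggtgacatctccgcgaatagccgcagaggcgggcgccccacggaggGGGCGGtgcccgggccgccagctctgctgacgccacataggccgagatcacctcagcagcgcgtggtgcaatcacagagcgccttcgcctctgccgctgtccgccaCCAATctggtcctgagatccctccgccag
Mvd: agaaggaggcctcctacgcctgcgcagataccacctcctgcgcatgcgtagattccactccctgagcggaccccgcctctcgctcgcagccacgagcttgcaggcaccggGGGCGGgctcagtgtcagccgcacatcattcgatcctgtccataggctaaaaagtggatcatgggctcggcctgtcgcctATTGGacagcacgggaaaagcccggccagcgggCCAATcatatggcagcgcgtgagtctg
Hmgcs1: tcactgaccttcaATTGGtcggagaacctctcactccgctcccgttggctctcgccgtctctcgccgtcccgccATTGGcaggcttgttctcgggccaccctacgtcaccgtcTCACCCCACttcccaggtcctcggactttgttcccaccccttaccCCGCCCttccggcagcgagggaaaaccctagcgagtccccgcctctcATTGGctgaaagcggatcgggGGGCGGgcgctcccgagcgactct
Among the 30 members in the table, 20 held CCAAT (66.7%) and 22 held GGGCGG (73.3%). Where a member had several listed promoters, the one with the most accessible peak was used, whereas for all genes the first listed was used. Of all 27025 promoters of this length 34.5% held CCAAT and 32.9% held GGGCGG, and of the 11947 promoters of genes with a mean count of at least 10 the shares were 36.4% and 54.0%. The 14 sterol enzymes in the table held CCAAT in 13 and GGGCGG in 13, and the 16 other members in 7 and 9. TCACNCCAC occurred in 1 of 30, Hmgcs1, at position -137 from the start, and in 1.04% of all promoters, while CACGTG occurred in 5 of 30 and in 6.05% of all promoters. A match describes letters in this window only.

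The SREBP regulators gave no call against NK in edgeR's fit of all 15 libraries without a mouse term. Their median log2 fold change in DN was -0.03, and -0.12 without the 3 libraries, while the summed enzymes were highest in DN2. Srebf2, the SREBP gene chiefly tied to sterol synthesis, was at 114, 83.4, 99.9 and 71.3 CPM in NK and at 183, 100 and 144 CPM in DN. FMSP was at 308, 131, 148 and 97.8 CPM and DP at 174, 114, 159 and 169 CPM. The ranges overlapped through NK1 and FMSP6, and the ILC1 mean gave 0.75 ± 0.27 (adjusted p = 0.152; 0.80 ± 0.25, adjusted p = 0.0963 without the 3 libraries). In DP, Srebf2 was called in mice 4 to 6 alone (0.79, adjusted p = 0.0411). Insig1, itself an SREBP target and the sterol-sensing brake, was at 97.9 CPM in DN2, 4.69-fold above the median of the other libraries, and between 8.61 and 35.2 CPM elsewhere. Insig2, the second brake, lay between 23.4 and 40.9 CPM in all 15 libraries. Scap, the SREBP escort, lay between 28.5 and 129 CPM, highest in NK1.

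Srebf1, the SREBP gene chiefly tied to fatty acid synthesis, was higher in mice 1 to 3 than in mice 4 to 6, without overlap. The 4 libraries of mice 1 to 3 lay between 130 and 219 CPM and the 11 libraries of mice 4 to 6 between 51.4 and 122 CPM. Dhcr7, the reductase that makes cholesterol from 7-dehydrocholesterol, behaved likewise, at 48.6 to 67.1 CPM against 18.01 to 36.9 CPM. They were 2 of 38 members higher without overlap in mice 1 to 3, and 0 were lower. Over all genes the shares were 5.51% and 10.4%, so the count of higher members is near that of all genes. Fewer genes were detected in NK1, FMSP3 and DP3 (14592, 14713 and 15188) than in any other library (16193 to 20057, with DN2 at 17283). NK1, DN2, FMSP3 and DP3 held the lowest value of all libraries in 26.4%, 13%, 14.8% and 6.82% of tested genes. The part of this difference in the member values was not tested. The labels give mouse numbers only, and no date or sort day, so nothing in them names what mice 1 to 3 share. These mice differ from mice 4 to 6 in the populations they gave, since mouse 1 gave NK, mouse 2 DN and mouse 3 FMSP and DP.

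Of the 10 fatty acid genes, Elovl1 was called in edgeR's fit of all 15 libraries without a mouse term, and it was lower in ILC1s. Elovl1, the elongase of saturated and monounsaturated very long chains, was at 352, 191, 211 and 200 CPM in NK. DP stood at 194, 99.1, 119 and 116 CPM, FMSP at 196, 130, 139 and 131 CPM, and DN at 133, 117 and 117 CPM. All 3 DN libraries lay below all NK libraries, and DP and FMSP overlapped NK only through the libraries of mouse 3. Elovl1 fell in the ILC1 mean (-0.83 ± 0.20, adjusted p = 0.0214). Without DN2, FMSP5 and FMSP6 the log2 fold change was -0.81 ± 0.23 (adjusted p = 0.0701), and without NK1 it was -0.59 ± 0.19 (adjusted p = 0.123). Its promoter is on the plus strand at chr4:118427843-118428092, shown because Elovl1 was the fatty acid gene called in edgeR's fit of all 15 libraries without a mouse term, with the same capitals; a GC box overlaps the CCAAT near the start.
Elovl1: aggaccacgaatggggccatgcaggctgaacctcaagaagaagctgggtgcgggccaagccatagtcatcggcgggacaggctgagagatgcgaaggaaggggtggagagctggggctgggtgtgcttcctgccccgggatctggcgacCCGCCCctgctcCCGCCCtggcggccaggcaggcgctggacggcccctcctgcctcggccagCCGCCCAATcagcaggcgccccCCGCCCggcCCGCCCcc

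Acly, which makes cytosolic acetyl-CoA from citrate and so feeds both pathways, was at 390, 284, 273 and 205 CPM in NK. The DN libraries were at 432, 152 and 149 CPM, DN2 being the highest of all 15. FMSP was at 332, 167, 156 and 156 CPM and DP at 240, 132, 164 and 180 CPM, and the ILC1 mean gave -0.48 ± 0.29 (adjusted p = 0.465; -0.61 ± 0.23, adjusted p = 0.182 without the 3 libraries). Fasn, the synthase of palmitate, lay between 40.0006 and 156 CPM, with DN2 highest and FMSP3 next at 152 CPM. Acaca, which makes malonyl-CoA, lay between 5.92 and 21.7 CPM with no order by population.

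The desaturases varied most. Scd2, a stearoyl-CoA desaturase, was at 87.6, 44.6, 51.2 and 48.4 CPM in NK, at 652 CPM in DN2, and between 13.8 and 40.2 CPM in the other 10 ILC1 libraries. Without the 3 libraries all 8 remaining ILC1 libraries lay below all NK libraries, with a log2 fold change of -1.03 ± 0.28 (adjusted p = 0.056) for the ILC1 mean of Scd2, against -0.05 ± 0.59 (adjusted p = 0.992) with them. Scd1, its counterpart, was at 79.7, 24.2 and 9.65 CPM in DN and between 0.470 and 7.07 CPM in NK (3.58 ± 1.09, adjusted p = 0.104; 2.42 ± 1.19, adjusted p = 0.420 without the 3 libraries). Fads1, the delta-5 desaturase of polyunsaturated fatty acids, was at 104 CPM in DN2, at 13.8, 8.55, 24.0 and 23.7 CPM in FMSP and at 8.22, 2.30, 0.973 and 3.92 CPM in NK. Every FMSP library was above every NK library for Fads1 (2.18 ± 0.92, adjusted p = 0.283). Fads2, the delta-6 desaturase, was at 49.4 CPM in DN2, 17.5 CPM in FMSP5 and 7.39 CPM in FMSP6, the 3 libraries with high hepatocyte markers, and at 0 to 4.93 CPM elsewhere, with 0 counts in 7 libraries. Elovl5 and Elovl6, elongases of polyunsaturated and of saturated chains, gave no call against NK in edgeR's fit of all 15 libraries without a mouse term. Elovl5 was at 54.2 CPM in DN2 and between 80.4 and 115 CPM elsewhere, and Elovl6 ranged from 5.59 CPM in DP3 to 57.0 CPM in DN2. Over the 10 fatty acid genes the median in DN was 0.22, and -0.49 without the 3 libraries.

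**Figure D3:**
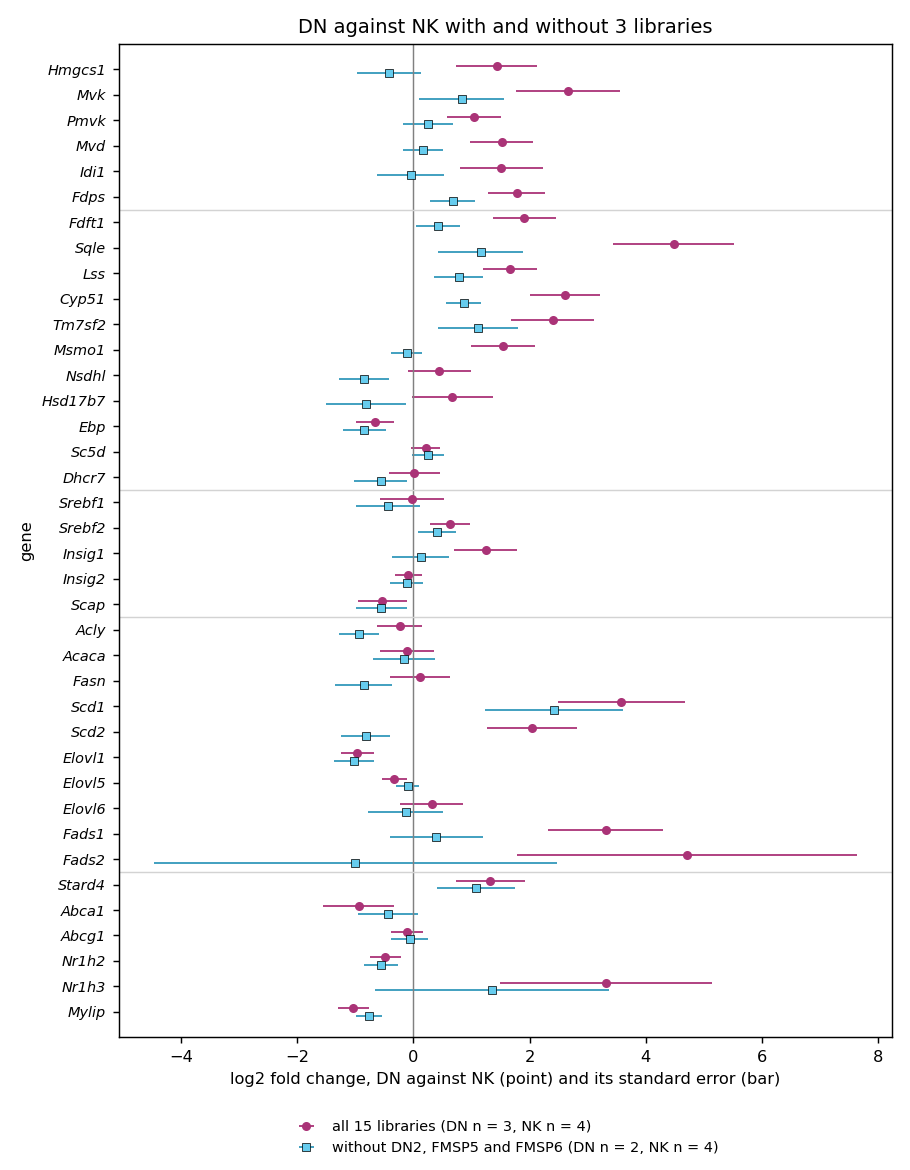
Log2 fold change of each member in DN against NK, with all 15 libraries and without DN2, FMSP5 and FMSP6, with standard errors as bars and genes ordered by role. Sqle moved from 4.48 to 1.16, Cyp51 from 2.61 to 0.87 and Scd2 from 2.04 to -0.82 when the 3 libraries were left out.

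Among sterol transport and LXR genes, 1 of 6 was called against NK in edgeR's fit of all 15 libraries without a mouse term. Mylip, the LXR-induced ubiquitin ligase that removes lipoprotein receptors from the cell surface, was at 244, 229, 159 and 193 CPM in NK and at 58.9, 113 and 130 CPM in DN. FMSP stood at 184, 157, 121 and 135 CPM and DP at 169, 196, 165 and 166 CPM. Only DN lay wholly below NK. Mylip fell in DN (-1.03 ± 0.26, adjusted p = 0.0475). The call was lost without the 3 libraries (-0.76 ± 0.22, adjusted p = 0.137) and without DN2, DN4, NK1, NK4 or NK6 alone, with adjusted p of 0.128, 0.0791, 0.110, 0.113 and 0.0849. Mylip, like 13% of all tested genes, had its lowest value of all libraries in DN2, where most sterol enzymes were highest. Its promoter, on the plus strand at chr13:45389492-45389741, is shown for that call.
Mylip: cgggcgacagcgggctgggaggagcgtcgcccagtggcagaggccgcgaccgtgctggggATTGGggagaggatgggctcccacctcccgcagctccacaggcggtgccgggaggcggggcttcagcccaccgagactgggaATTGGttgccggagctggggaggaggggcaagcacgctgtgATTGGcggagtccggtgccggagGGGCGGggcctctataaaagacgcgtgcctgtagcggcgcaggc

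Abca1, the exporter that loads sterol onto lipid-poor apolipoprotein, was at 21.4, 31.3, 15.5 and 24.8 CPM in NK and at 2.15, 22.9 and 11.4 CPM in DN. All 4 FMSP libraries, at 4.32, 14.0, 13.6 and 9.97 CPM, lay below NK for Abca1, yet the difference did not pass (-1.15 ± 0.56, adjusted p = 0.375). Abcg1, the exporter to lipoprotein particles, was at 70.8 CPM in NK1 and at 33.9 to 36.8 CPM in NK4, NK5 and NK6, beside 38.2 to 73.0 CPM in ILC1s. Nr1h2, the LXR gene expressed in most tissues, lay between 138 and 317 CPM. Nr1h3, the LXR of liver and macrophages, was at most 0.843 CPM in NK and at 0 to 12.2 CPM in ILC1s, highest in DN2 and FMSP5. Stard4, a cytosolic sterol carrier, was at 2.98 CPM in NK1 and at 14.59 to 16.1 CPM in the other NK libraries.

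Because the populations of 1 mouse were sorted from the same animal, the comparison was also made with mouse as a block. This uses mice 3 to 6, since mice 1 and 2 gave 1 library each and are fitted exactly. For the ILC1 mean the number of members called went from 2 to 7, 3 higher and 4 lower, beside 12.7% of all genes, 5.4% higher and 7.26% lower. Fdps (0.66 ± 0.18, adjusted p = 0.0448), Lss (1.38 ± 0.33, adjusted p = 0.0236) and Fads1 (1.81 ± 0.51, adjusted p = 0.0461) rose. Ebp (-0.72 ± 0.12, adjusted p = 0.0039), Acly (-0.69 ± 0.13, adjusted p = 0.0077), Elovl1 (-0.72 ± 0.07, adjusted p = 0.0002) and Mylip (-0.45 ± 0.11, adjusted p = 0.0275) fell. DP gave 2 higher and 4 lower (9.62% of all genes, 4.86% higher and 4.75% lower). FMSP gave 3 higher and 3 lower (9.82%, of which 4.51% higher and 5.31% lower), and DN 0 higher and 3 lower (6.96%, of which 3.24% higher and 3.72% lower). Ebp and Elovl1 fell in all 3 populations under the block, and Acly in DP and FMSP. Lss rose in DP (1.81, adjusted p = 0.0150) and in FMSP (1.602, adjusted p = 0.0232). In DN the calls of Sqle (1.13 ± 0.56, adjusted p = 0.306) and Cyp51 (1.01 ± 0.29, adjusted p = 0.0743) were lost with DN2 fitted exactly, while Mylip was called (-0.74 ± 0.16, adjusted p = 0.0236). Scd2 fell in DP (-1.10 ± 0.29, adjusted p = 0.0454) and Abcg1 rose there (0.66 ± 0.15, adjusted p = 0.0247).

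The levels within mice underlie these calls. In mice 4 to 6, Ebp was at 96.0 to 121 CPM in the 3 NK libraries and at 52.5 to 71.5 CPM in the 8 ILC1 libraries. Acly was at 205 to 284 CPM in those NK libraries and at 132 to 180 CPM in the ILC1 libraries. Elovl1 was at 191 to 211 CPM against 99.1 to 139 CPM, and Scd2 at 44.6 to 51.2 CPM against 13.8 to 40.2 CPM. These 4 genes were lower without overlap and 2, Abcg1 (40.8 to 69.9 against 33.9 to 36.8 CPM) and Fdft1 (21.06 to 39.0 against 15.2 to 21.03 CPM), were higher; among all genes 8.01% were lower and 7.22% higher without overlap. Over all 15 libraries 0 members separated the 11 ILC1 from the 4 NK libraries, beside 2.4% of all genes higher and 2.51% lower. Against NK of the same mouse, Lss had a log2 ratio of 1.02 in DP4, 2.95 in DP5 and 1.09 in DP6. It was 1.58, 2.04 and 1.23 in FMSP of mice 4 to 6, and 0.08 and 0.78 in DN4 and DN6. All 8 paired ratios were positive for Lss, and also for Fdps, Fdft1, Cyp51, Srebf2, Fads1 and Abcg1. Some of these were near 0, such as 0.0021 for Fdft1 in FMSP4 and 0.026 for Fdps in DN4. All 8 paired ratios were negative for Ebp, Acly and Elovl1, and also for Scd2 and Elovl6. Ratios of the same mouse share its NK library, and the share of all genes with such ratios was not computed. A fit of mice 4 to 6 alone called 3 higher and 4 lower for the ILC1 mean (13.2% of all genes, 5.47% higher and 7.72% lower); there Srebf2 rose by 0.62 ± 0.18 (adjusted p = 0.0445) and Abcg1 by 0.48 ± 0.14 (adjusted p = 0.0429).

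**Figure D4:**
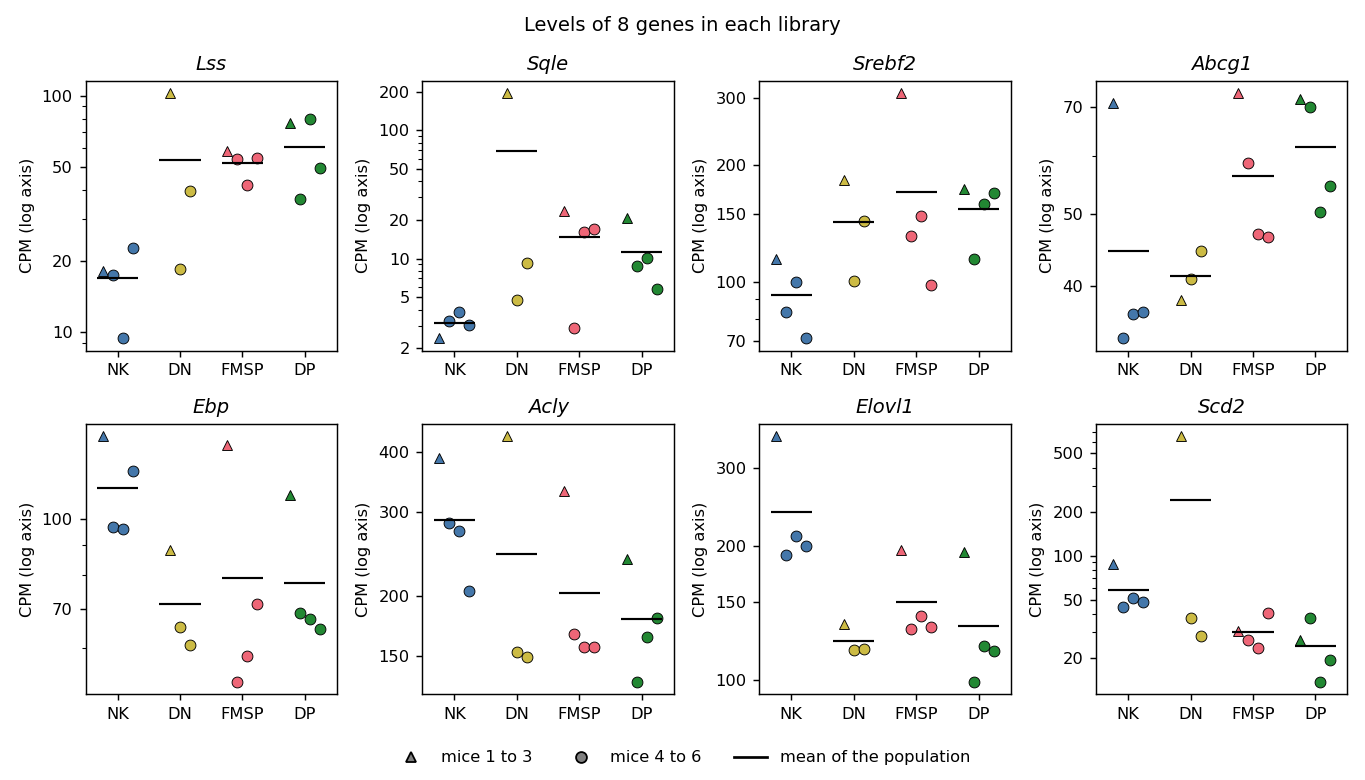
CPM of 8 members in each library, grouped by population, 1 point per library on a log axis, with triangles for mice 1 to 3, circles for mice 4 to 6 and a bar at the population mean. Lss lay at 9.42 to 22.6 CPM in NK and at 36.4 to 79.4 CPM in DP, and Elovl1 in NK1 (352 CPM) stood above every other library.

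Between ILC1 populations no member was called by edgeR. DP against DN had 13 of 38 members at an unadjusted p under 0.05, a threshold at which no share of all genes was computed. DESeq2 called 2 members (2.98% of all genes) and edgeR 0 (0.0584% of all genes). FMSP against DN had 6 at that unadjusted threshold, with 1 called by DESeq2 (1.36% of all genes) and 0 by edgeR (0.00584%). DP against FMSP had 0 unadjusted, 0 by DESeq2 (1.31% of all genes) and 0 by edgeR (0.00584%). The lowest adjusted p in DP against DN belonged to Scd2 (-3.30 ± 0.81, adjusted p = 0.213), and without the 3 libraries it was -0.43 (adjusted p = 0.877). The DESeq2 calls were Cyp51 (-2.39, adjusted p = 0.0061) and Scd1 (-3.44, adjusted p = 0.0269) in DP against DN, and Cyp51 (-2.24, adjusted p = 0.0267) in FMSP against DN, all lower than in DN. At 3 or 4 libraries per group, the absence of a call by edgeR does not show that the populations are equal.

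Of 22 further genes of the pathway, read from a second list, the ILC1 mean against NK called 1 higher and 4 lower. Acss2, which makes acetyl-CoA from acetate and is an SREBP target, gave the firmest change. It was at 287, 194, 165 and 172 CPM in NK and between 57.4 and 108 CPM in the 11 ILC1 libraries, without overlap (-1.52 ± 0.19, adjusted p = 0.00012). Npc1, the lysosomal sterol transporter (-1.12 ± 0.23, adjusted p = 0.00644), and Lipa, the lysosomal cholesteryl ester hydrolase (-0.80 ± 0.18, adjusted p = 0.0142), also fell. Elovl7, a long-chain elongase, stood at 38.6, 51.2, 52.5 and 64.1 CPM in NK and at 0 to 6.32 CPM in ILC1s, and fell as well (-6.06 ± 0.97, adjusted p = 0.00102; with counts of 0 in some ILC1 libraries this fitted value depends on the prior count). Fabp5, a fatty acid carrier, rose (3.07 ± 0.86, adjusted p = 0.0493), and the call was lost without the 3 libraries (2.43, adjusted p = 0.128). Acat2, an acetyl-CoA thiolase of the cytosol, was at 283 CPM in DN2 and between 24.4 and 59.0 CPM elsewhere. DP gave 0 higher and 2 lower of the 22, FMSP 0 and 3, and DN 1 and 2. The shares of all genes called were 5.92% for the ILC1 mean (2.9% higher and 3.02% lower), 4.08% for DP, 4.07% for FMSP and 2.99% for DN.

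Chromatin accessibility was read from the authors' peak counts, which assign 99 peaks to 37 of the members, 50 of them promoter peaks of 36 members. In liver ILC1 against liver NK, 11 member peaks were higher and 4 lower by edgeR's quasi-likelihood test, beside 18.7% of all peaks called, 9.83% higher and 8.85% lower. Of the 50 promoter peaks 8 were higher and 0 lower; of all promoter peaks 18.6% were called, 13.7% were higher and 4.86% lower. The median log2 fold change of the member promoter peaks was 0.27, and of all promoter peaks 0.19. With 2 libraries per group, leaving out 1 library moved the count of called member peaks from 15 to 7 (without the first NK or the second ILC1 library of liver) or 24 (without the first ILC1 library). The shares of all peaks called in these omissions are not given here.

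The largest promoter difference in liver was at Lss, the gene whose RNA rose. The peak at chr10:76541123-76543673, annotated by the authors as promoter, was at 39.2 and 53.1 CPM in liver NK and at 78.5 and 90.2 CPM in liver ILC1 (0.88 ± 0.20, adjusted p = 0.00027). The RefSeq start of Lss lies in another peak, chr10:76530854-76532156, which was at 34.2 and 47.8 CPM in NK and at 44.3 and 60.1 CPM in ILC1 and was not called (0.36 ± 0.20, adjusted p = 0.196). Promoter peaks of Srebf1 (0.79, adjusted p = 0.00132), Mvk (0.77, adjusted p = 0.00154), Srebf2 (0.71, adjusted p = 0.0037), Dhcr7 (0.62, adjusted p = 0.0115), Abcg1 (0.61, adjusted p = 0.0125), Sqle (0.59, adjusted p = 0.0211) and Acly (0.56, adjusted p = 0.0287) were also higher. For each of the 8 promoter calls there was at least 1 liver library without which it was lost. Lss was lost without the first NK library (0.67, adjusted p = 0.0653) and Srebf1 without the second (0.60, adjusted p = 0.0837). Mvk, Srebf2, Dhcr7 and Abcg1 were each lost without the first NK library (adjusted p = 0.196, 0.126, 0.188 and 0.154) and without the second ILC1 library (0.126, 0.113, 0.143 and 0.191). Sqle and Acly were lost without the first NK (0.196 and 0.146), the second NK (0.0517 and 0.107) or the second ILC1 library (0.194 and 0.219). Acly RNA, by contrast, was lower in ILC1s under the mouse block. The Elovl1 promoter peak, at chr4:118427574-118429181, was at 28.5 and 42.1 CPM in liver NK and at 36.2 and 47.1 CPM in liver ILC1, and was not called (0.25 ± 0.20, adjusted p = 0.390). The Mylip promoter peak was not called either (0.31 ± 0.21, adjusted p = 0.311). Another Mylip peak, not a promoter peak, was called higher in liver ILC1. Its log2 fold change was 0.497 to 0.770 when 1 liver library was left out, and 1 of 4 such omissions kept the call. Mylip RNA, by contrast, was lower in DN.

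The strongest accessibility difference among the members was inside Abcg1. An intron peak at chr17:31078486-31079115 was at 12.1 and 18.3 CPM in liver NK and at 2.54 and 1.66 CPM in liver ILC1 (-2.89 ± 0.33, adjusted p = 3.49e-16). In spleen NK it stood at 24.0 and 24.2 CPM, and in salivary gland ILC1 at 0.753 and 0.947 CPM (-4.78 ± 0.32, adjusted p = 3.32e-49). Both ILC1 groups lay below both NK groups at this Abcg1 peak, while the Abcg1 promoter peak was higher in liver ILC1. A further Abcg1 peak, not a promoter peak, was also called higher in liver ILC1. Its log2 fold change was 0.855 to 1.30 when 1 liver library was left out, and all 4 such omissions kept the call. In Elovl6, 3 intron peaks were lower in liver ILC1 (-1.04, -1.91 and -1.64), the first of them not called without the second NK library (-0.65, adjusted p = 0.152). An intron peak of Srebf2 at chr15:82155964-82157434 was higher in ILC1 of both comparisons (0.85 ± 0.24, adjusted p = 0.00525 in liver; 1.86 ± 0.25, adjusted p = 7.57e-13 between salivary gland ILC1 and spleen NK). Its liver call was lost without the second NK library (0.48, adjusted p = 0.279) or the second ILC1 library (0.70, adjusted p = 0.144).

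Salivary gland ILC1 against spleen NK gave the opposite balance at member promoters, 1 higher and 15 lower, beside 37.2% of all promoter peaks called, 15.7% higher and 21.5% lower. Over all 99 member peaks 14 were higher and 31 lower, where 48.2% of all peaks were called, 22% higher and 26.2% lower. Cell type and organ differ together in this comparison and cannot be told apart. Mvk, Dhcr7 and Acly had promoter peaks that were higher in liver ILC1 and lower in salivary gland ILC1. For the mean of both ILC1 against both NK groups 20 member peaks were higher and 20 lower, beside 44% of all peaks; without the second salivary gland library 25 were called in all.

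**Figure D5:**
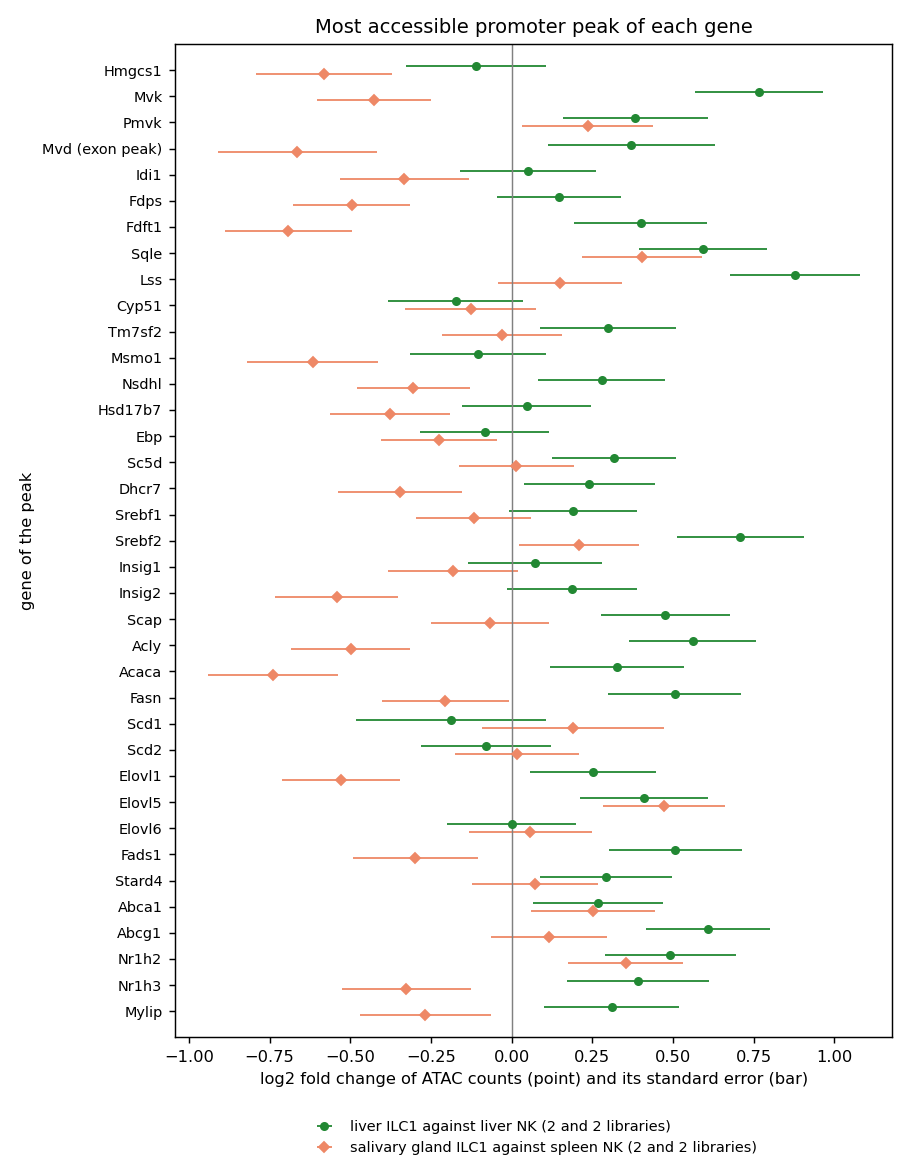
Log2 fold change of the most accessible promoter peak of each member (an exon peak for Mvd) in liver ILC1 against liver NK and in salivary gland ILC1 against spleen NK, with standard errors as bars. Lss has the highest liver value (0.88), and Mvk lies at 0.77 in liver and at -0.43 in the other comparison.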

How the data were processed

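RNA was measured in 15 libraries of sorted mouse liver cells and chromatin accessibility in 8. Per the submitters' processing notes, Salmon 1.6, Bowtie2, SAMtools, MACS2 and DESeq2 were used with the mm10 build, with no role stated for each. The authors deposited estimated counts per gene, already whole numbers in the file, and a table of counts per ATAC peak with each peak's assigned gene. Library totals were 51641248 to 73309063 for RNA and 5609587 to 26944890 in peaks for ATAC. Of the gene entries, 26 had names turned into dates (0.265% of counts), and none is a member.

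Counts were fitted with edgeR 4.0.16 (R 4.3.3, limma 3.58.1), quasi-likelihood with robust dispersion, TMM scaling and filterByExpr at a minimum count of 10 (17124 genes, 51292 of 51412 peaks), all libraries in 1 model per assay, with 11 and 4 residual degrees of freedom. P-values were adjusted by the Benjamini-Hochberg method over all tested features. CPM uses TMM-adjusted library sizes. Levels are not compared between genes, since no gene lengths were used. Scripts were tested on simulated data. Libraries with the same mouse number come from the same animal; their deviations from group means had a median correlation of 0.113 (16 pairs) and those of different mice -0.0266 (68 pairs). ATAC replicates are numbered by mouse in the labels, which do not state that a number is the same animal in different groups; same-numbered libraries there showed correlations of -0.120 to 0.179 over 12 pairs.

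Members, gene lists and tests were chosen with earlier results of these data known. All members could be named, with per-library values for those called with or without the 3 libraries and for others that show the range. Peaks named are each member's most accessible promoter peak and any called peak. Alternatives were DESeq2 1.42.0, other scalings, no filter, a mouse block, mice 4 to 6 only, leaving out libraries and, added after seeing the data, a term for mice 1 to 3 against mice 4 to 6.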

Additional observations from a re-analysis of the deposited data

Results flagged for a closer look

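Within each population of 4 RNA libraries, a member is listed here when 1 library stood apart from the other 3 by more than Dixon's 95% critical value. This held in 17 of 114 combinations of member and population. The critical value picks about 1 in 20 only for independent, normally distributed values. The combinations share libraries, CPM need not be normally distributed, and no share over all genes was computed. The count of 17 is therefore given without a background rate. DN, with 3 libraries, was not tested. Of the 17, 13 concern NK1, FMSP3 or DP3, the libraries of mice 1 and 3, in which the fewest genes were detected.

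In NK1, Elovl1 (352 CPM), Scd2 (87.6 CPM) and Abcg1 (70.8 CPM) stood above the other NK libraries and Stard4 (2.98 CPM) below them. In FMSP3, Mvk (32.9 CPM), Dhcr7 (51.6 CPM), Acly (332 CPM) and Elovl1 (196 CPM) stood above the other FMSP libraries. In DP3, Mvd (41.6 CPM), Ebp (110 CPM), Fads1 (15.4 CPM) and Fads2 (4.93 CPM) were high and Elovl6 (5.59 CPM) was low. The other combinations were Mvd low (11.2 CPM) and Acaca high (18.3 CPM) in FMSP6, Cyp51 high (37.2 CPM) in FMSP5 and Mylip high (196 CPM) in DP4. The NK1 value of Elovl1 bears on the call for the ILC1 mean, which was lost without that library.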

How the results depend on the processing

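Values are numbers of members called, with all 15 libraries unless stated. Counts under the term for mice 1 to 3, the ATAC replicate block and the omission of 1 library stand without the share of all features called. Those counts cannot be set against a background here. For the ILC1 mean against NK 2 were called; without DN2, FMSP5 and FMSP6 there was 1, with mouse as a replicate block 7, in mice 4 to 6 only 7, by DESeq2 6, with a term for mice 1 to 3 (chosen after seeing the data) 7, and 1 to 3 when 1 library was left out. For DP against NK 1 was called, and under the same alternatives 2, 6, 6, 2 and 5, with 2 under library totals and 0 to 1 without 1 library. For FMSP against NK 0 were called, and 1, 6, 6, 1 and 6, with 1 under library totals and 0 without any 1 library. Among all genes, library totals called 772 in DP and 748 in FMSP, beside 699 and 697 in the main fit. For DN against NK 3 were called; there were 0 without the 3 libraries, 10 by DESeq2, 6 with the mouse-set term and 0 to 8 without 1 library, while the block gave 3 and mice 4 to 6 gave 4, Mylip being the gene these shared with the fit without a block. The share of all genes called also changed: with the block, in mice 4 to 6 and by DESeq2 it was 12.7%, 13.2% and 10.8% for the ILC1 mean (beside 5.92%), 9.62%, 9.17% and 8.75% for DP (beside 4.08%), 9.82%, 8.94% and 8.49% for FMSP (beside 4.07%), and 6.96%, 8.04% and 8.07% for DN (beside 2.99%). DESeq2 called 2 in DP against DN and 1 in FMSP against DN, where edgeR called 0. Member peaks called in liver ILC1 against liver NK ranged from 7 to 24 around 15 when 1 library was left out, in salivary gland ILC1 against spleen NK from 33 to 40 around 45, and for both against both from 25 to 42 around 40. A replicate block by ATAC number gave 15, 47 and 40. No member named changed direction in a call. With library totals as the only scaling, the median log2 fold change over all genes was 0.37 in DN against NK, beside 0.17, and 75.5% of the called genes were higher, beside 60.5%; for the ILC1 mean 60% were higher, beside 48.9%. The causes were not tested.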
